A study of Mus musculus with 3 samples.

Results

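The genes described here are those of mouse ubiquitin conjugation and removal whose names begin with Ube2, Ube3, Rnf, Cul, Fbx, Usp or Uch followed by the family's usual number or letter. They were taken by symbol from the array's probe-gene table, from probe sets that name 1 gene, leaving out Usp18 and any gene on chromosome Y. The rule gave 141 probe sets for 102 genes, of 12422 non-control probe sets and 8251 genes on the array. By role these were 21 conjugating enzymes (Ube2), 31 RING finger genes (Rnf), 1 gene of the Ube3 ligases, 5 cullins, 16 F-box genes, 26 ubiquitin-specific proteases (Usp) and 2 ubiquitin carboxyl-terminal hydrolases (Uch). A further 4 probe sets name a gene of these families together with other genes and were not counted.

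RNA was measured on 3 Affymetrix arrays of medial edge epithelium, the cell layer at the tip of each palatal shelf, from CF-1 mouse embryos at ED13.5. The tissue was unfused and uncultured at 0 h, fused at 12 h after the shelves had been placed together in culture, and fused and undergoing epithelial-mesenchymal transformation at 24 h. All samples were freed with Dispase II, and their RNA was amplified before labelling. Each time point had 1 array, so no ratio has a replicate, an error or a test, and fusion cannot be told apart from time in culture. The labels do not say how many embryos went into a sample.

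Ubiquitin is attached to proteins in 3 steps, by an activating enzyme (E1), a conjugating enzyme (E2) and a ligase (E3). Ligases with a RING finger bring the charged E2 to the substrate, and cullins are scaffolds that hold a RING protein at one end and a substrate adaptor, such as an F-box protein, at the other. Ligases of the Ube3 kind carry ubiquitin on themselves before passing it on. Usp and Uch proteases take ubiquitin off again. In epithelia this system sets the turnover of beta-catenin, of Smad proteins and of receptors for transforming growth factor beta, the pathway on which palatal fusion depends.

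Signals were scaled to a common trimmed mean and floored at a scaled signal of 13.5, the pooled 40th percentile. A ratio with 1 array at the floor is a bound, written "at least". Where 3 signals of a probe set follow each other, they are the scaled signals at 0, 12 and 24 h in that order; the first step runs from 0 to 12 h and the second from 12 to 24 h. The deposited trimmed means of 93.7, 58.1 and 46.8 at 0, 12 and 24 h gave scale factors of 0.676, 1.09 and 1.36. The 3' to 5' signal ratio of the Gapdh control was 0.828, 14.9 and 12.6 on these arrays, and that of the Actb control 1.02, 11.9 and 2.97. The part of this difference between arrays in the ratios below was not tested. Of 15 epithelial marker genes on the array, 12 were above the floor on at least 1 array, while the basal keratins Krt5, Krt14 and Krt15 were below it on all 3. The summed scaled signal of these markers was 1005, 1865 and 1804 in the order of the times. That of 12 palate mesenchyme markers was 4413, 6739 and 7984, that of 6 red cell markers 6477, 1589 and 1506, and that of 10 leukocyte markers 243, 767 and 724. A few bright genes carry the sums of the epithelial, mesenchyme and leukocyte lists. Of 12 epithelial markers with a ratio for 12 h over 0 h, 4 were higher and 2 lower by 2-fold or more. Their median log2 ratio was -0.06. At 12 h over 0 h, 4 mesenchyme markers, the collagens Col1a1, Col1a2 and Col3a1 and Twist1, were at least 2-fold higher and 6 were lower, with a median log2 ratio of -0.76. Of the 6 leukocyte markers with a ratio, Ctss and Mpeg1 were higher and Cd68 lower by 2-fold or more, with a median of -0.25. Endothelial markers (8 genes) summed to 304, 535 and 557, and muscle markers (8 genes) to 571, 299 and 292. Neural and glial markers (6 genes) summed to 801, 574 and 571. Bright genes weigh on these sums too: Cdh5 had 51.7, 263 and 160, Actc1 280, 88.6 and 56.4 and Tubb3 459, 74.8 and 203. Median log2 ratios at 12 h over 0 h were 0.33 for the endothelial, -0.89 for the muscle and 0.17 for the neural and glial list. The part of these other cell types in the ratios of the ubiquitin genes was not tested, and in such tissue fewer cells of a type and less RNA per cell cannot be told apart.

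Of the 102 genes, 79 exceeded the floor at every time, 5 on 2 arrays, 6 on 1 array and 12 on none. Of the 8251 genes on the array, 4682 exceeded it at every time, a smaller share. The part of this difference in the shares compared below was not tested. The 12 without a measured signal were Fbxl12, Fbxl15, Fbxo15, Rnf112, Rnf114, Rnf123, Rnf225, Usp12, Usp17la, Usp17lc, Usp29 and Usp42. Usp17la and Usp17lc belong to a family of near-identical gene copies, whose signals a probe set may not separate. All 21 conjugating enzymes were above the floor on at least 1 array, and 19 of them on all 3. Among the 79 genes above the floor throughout, 34 peaked on the 0 h array, 37 on the 12 h array and 8 on the 24 h array (43.0%, 46.8% and 10.1%), against 39.2%, 31.5% and 29.3% of the 4682 such genes on the whole array. The 8 that were highest at 24 h were Ube2c, Ube2l6, Ube2s, Fbxw11, Rnf20, Rnf208, Usp3 and Usp38. These shares come from single arrays and depend on the scaling.

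**Figure D1:**
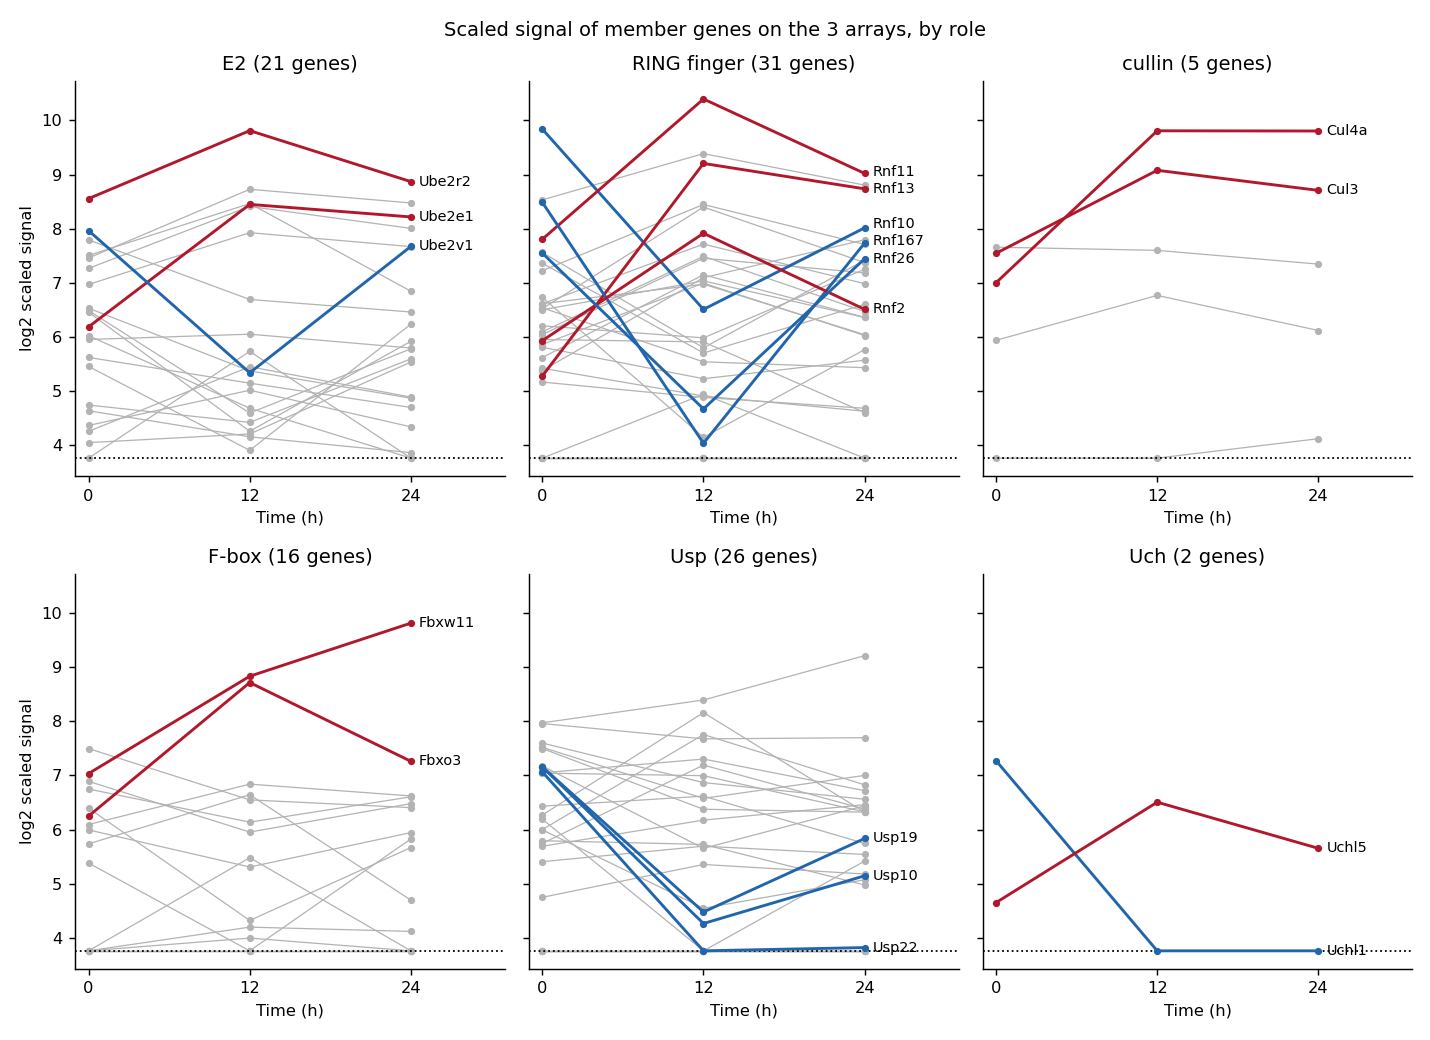
Scaled signal (log2, vertical axis) of each ubiquitin gene against time (h) in 6 panels by role; Ube3a is not drawn. Each line is a gene with 1 array per point, the dotted line is the floor, red and blue mark selected genes that were higher or lower at 12 h than at 0 h, and the other genes are grey. Rnf167 goes from 359 to 16.4 and returns to 213, whereas Cul4a goes from 128 to 897 and stays at 895.

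The comparison of 12 h with 0 h covered adherence and fusion of the shelves together with the first hours of culture. More ubiquitin genes were higher at 12 h than the array as a whole: 27 of the 89 genes with a ratio (30.3%) were at least 2-fold higher, where 17.7% of all genes were. Counting both directions, 44.9% of all genes differed by that much. Another 23 (25.8%) were at least 2-fold lower, close to the 27.3% of all genes, and 39 were neither. The median log2 ratio was 0.19 for these genes and -0.21 for all genes, a difference of 0.40. That difference was between 0.25 and 0.46 under 11 other ways of processing. Genes called higher made up 54.0% of the members' calls at this scaling, 28.6% on the deposited scale, 67.9% with medians made equal and 64.0% by quantile normalization. The same share over all genes was 39.3%, 16.8%, 58.7% and 51.1%, so it was greater for the ubiquitin genes under each of these scalings. The median of all genes itself moved with them, to -0.83 on the deposited scale, 0.18 with equal medians and 0.07 by quantile normalization.

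Between 12 h and 24 h, both in culture, 16 of 89 genes (18%) were higher by 2-fold or more and 13 (14.6%) lower, near the 18.8% and 12.0% of all genes (30.8% in either direction). Their median log2 ratio was -0.25, against 0.17 over all genes. The difference of -0.42 stayed between -0.46 and -0.34 under the 11 alternatives. The share of calls that were upward, 55.2% here, was 35.1% on the deposited scale, 34.2% with equal medians and 51.7% by quantile normalization. Over all genes it was 61.1%, 39.4%, 42.1% and 50.9%, above the ubiquitin genes except by quantile normalization. Between 0 h and 24 h, 14 of 86 genes (16.3%) were higher and 14 (16.3%) lower, where 14.5% and 17.7% of all genes were (32.1% in either direction), with medians of -0.14 and -0.08. That split of calls, 50% upward, was 9.62% on the deposited scale, 61.5% with equal medians and 55.6% by quantile normalization, against 45%, 8.36%, 55.5% and 51.1% over all genes. Any pair of these comparisons shares an array, so they are not independent of each other.

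**Figure D2:**
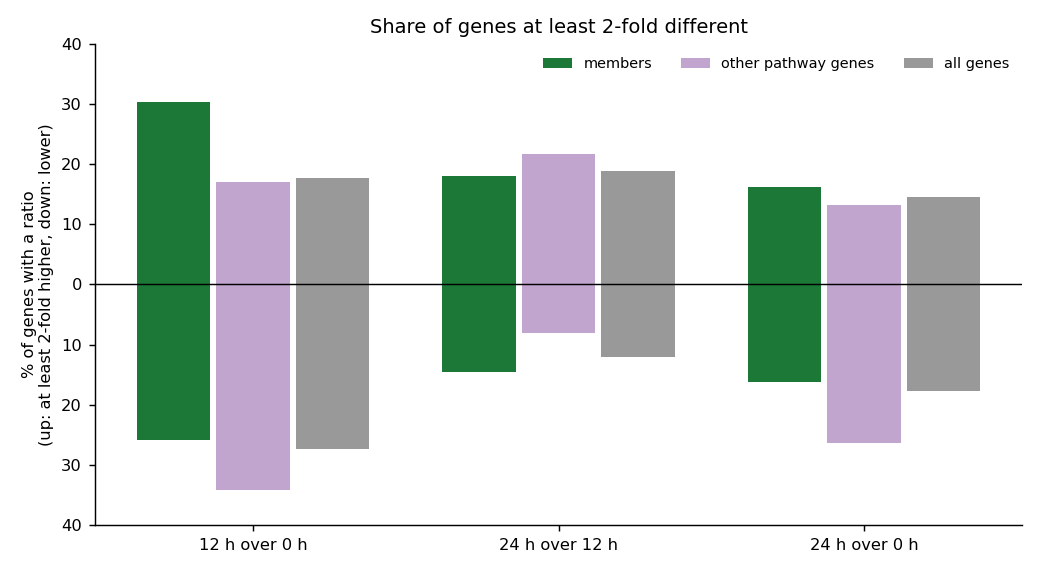
Share of genes with a ratio (%, vertical axis) that were at least 2-fold higher (bars above 0) or lower (bars below 0) in each comparison, for the ubiquitin genes (green), 82 other genes of the ubiquitin pathway (purple) and all genes (grey). At 12 h over 0 h the green upward bar reaches 30.3% and the grey bar 17.7%, while the other pathway genes reach 17.1%.

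How far a ratio can be trusted was gauged from genes with several measured probe sets. Over all such genes the log2 ratios of sets of 1 gene scattered around their mean with an SD of 1.24 for the first step, 0.82 for the second and 1.07 for the whole 24 h. Among the ubiquitin genes it was 1.5 (16 genes), 1.07 (13 genes) and 1.48 (16 genes). A 2-fold ratio therefore lies within this disagreement in the comparisons with 0 h. For 24 h over 12 h it lies within the members' SD of 1.07, though beyond the 0.82 of all genes. Beyond 2 of the all-gene SDs for 12 h over 0 h, a log2 ratio of 2.48, lay Cul4a, Rnf11 and Rnf13 on the high side. The second probe set of Rnf13 gave -1.47. On the low side were Rnf10, Rnf167, Rnf26, Rnf5, Ube2v1, Uchl1, Usp10, Usp19 and Usp22. Together the genes of both sides are 13.5% of the members with a ratio, against 8.42% of all genes. Fewer members lie beyond 2 of their own, larger SDs.

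Of 21 conjugating enzymes, 6 were higher and 7 lower by 2-fold or more at 12 h, against 17.7% and 27.3% of all genes. Their median log2 ratio was 0.10. Ube2e1, a conjugating enzyme with an amino-terminal extension that is measured by a single set with a cross-hybridization suffix, had signals of 72.7, 349 and 297, which is 4.81-fold higher at 12 h and 4.09-fold higher at 24 h when set against 0 h. Ube2r2, a Cdc34-type enzyme that extends ubiquitin chains on cullin ligase substrates, had 376, 899 and 468. Its 12 h signal was 2.39-fold higher than that at 0 h, and the 24 h signal lay between them. Ube2g1 had 176, 424 and 356, above its 0 h level at both later times. Ube2e3 had a log2 ratio of 1.19 at 12 h.

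The near-identical enzymes Ube2d2a and Ube2d3, whose signals the probes may share, work with most RING ligases and also had their highest signals at 12 h. Ube2d3 had 154, 340.3 and 257 and was 2.21-fold higher at 12 h. Its second probe set, which may cross-hybridize by its suffix, gave 34.6, 314 and 43.2. For Ube2d2a the signals were 182, 353 and 115, 3.08-fold lower at 24 h than at 12 h, and the second probe set had 23.9, 121 and 52.9. All 4 probe sets thus peaked at 12 h, while the size differed between sets of the same gene. Of all genes above the floor on every array, 31.5% peaked at 12 h. Ube2w, which attaches ubiquitin to amino termini, was above the floor at 12 h alone, with a signal of 53.1, at least 3.93-fold higher than at 0 h.

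Lower at 12 h were the enzymes that make lysine-63-linked chains. Ube2n, the catalytic subunit, had 222, 103 and 88, 2.15-fold lower at 12 h and 2.52-fold lower at 24 h than at 0 h. Its catalytically inactive partner Ube2v1 had 249.8, 40.4 and 204, 6.19-fold lower at 12 h than at 0 h and 5.06-fold higher at 24 h than at 12 h. The other partner, Ube2v2, had 65, 25.6 and below the floor, at least 4.80-fold lower at 24 h than at 0 h. So all 3 genes of this complex were lower at 12 h, and only Ube2v1 was back near its first level at 24 h (log2 ratio -0.29 for 24 h over 0 h). Ube2h, by its brighter probe set, had 87.8, 19.1 and 60.5; the other gave 54.1, 25.3 and 86.1, with the lowest signal at 12 h in each. Ube2o, a large enzyme that combines E2 and E3 functions, had 92.4, 41.3 and 29.1, 3.17-fold lower at 24 h than at 0 h. Another set of Ube2o, which may cross-hybridize by its suffix, had 64, below the floor and 42.4, 1.51-fold lower at 24 h. A further set was below the floor throughout.

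Enzymes tied to particular pathways had their own courses. Ube2c and Ube2s start and extend chains for the anaphase-promoting complex, the ligase of mitotic exit. Ube2s had 43.8, 14.9 and 75.4, 5.04-fold higher over the second step, and Ube2c had 26.7, 21.4 and 48.3, 2.26-fold higher over the same step. Both were higher at 24 h than on the other arrays, although by less than 2-fold over 0 h (log2 ratios 0.78 and 0.85). Ube2l6, the conjugating enzyme for the interferon-induced modifier Isg15, had 16.5, 18.4 and 46.4, 2.52-fold higher over the second step and 2.81-fold higher over both. Isg15 itself, looked up after the values of Ube2l6 were seen, had 16.7, 144 and 379. Its 12 h signal was already 8.61-fold higher than at 0 h, when the log2 ratio of Ube2l6 was 0.16. Log2 ratios of the Rad6-type enzymes Ube2a and Ube2b were -0.48 and 0.96 at 12 h, and that of Ube2f, which conjugates Nedd8, was -0.48.

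**Figure D3:**
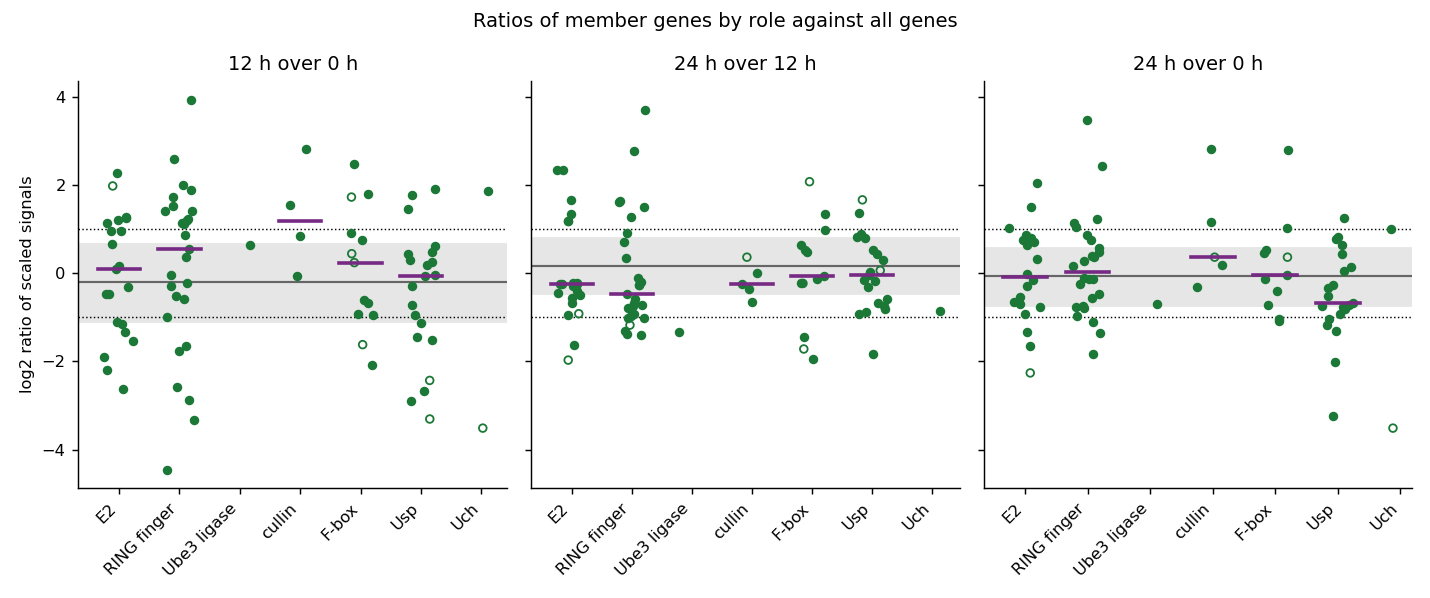
Log2 ratio of scaled signals (vertical axis) of each ubiquitin gene in the 3 comparisons, by role (horizontal axis). Filled points are measured on both arrays, open points have 1 array at the floor, purple bars are medians of roles with more than 2 genes, the grey line and band are the median and quartiles of all genes, and dotted lines mark 2-fold. At 12 h over 0 h the RING finger median of 0.53 lies above the all-gene line at -0.21, and at 24 h over 0 h the Usp median of -0.69 lies below that line at -0.08.

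RING finger genes were the largest role. Of the 27 with a ratio at 12 h, 12 were higher and 6 lower by 2-fold or more, against 17.7% and 27.3% of all genes. Their median log2 ratio was 0.53, or 0.75 above that of all genes. With values as deposited the median was -0.16, still 0.67 above that of all genes. At 24 h over 12 h the median was -0.47, with 6 genes higher and 6 lower, against 18.8% and 12.0% of all genes. The 2 largest ratios of opposite sign belonged to relatives: Rnf13 and Rnf167 are both membrane-anchored ligases of endosomes and lysosomes with a protease-associated domain. Rnf13 had 38.7, 591 and 426, 15.3-fold higher at 12 h and 11-fold higher at 24 h than at 0 h. A second probe set of Rnf13 gave 47.9, 17.3 and 32.7, the opposite direction at 12 h (log2 ratio -1.47). Rnf167 had 359, 16.4 and 213, 21.9-fold lower at 12 h than at 0 h and 13-fold higher at 24 h than at 12 h. Rnf149, of the same family, had log2 ratios of 0.36 and -0.94 over these steps.

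Rnf11, an adaptor in the complex that restrains NF-kappaB signalling, had 223, 1349 and 519.5 by its only set, which may cross-hybridize by its suffix. Its signal was 6.04-fold higher after the first step and 2.60-fold lower after the second. Rnf7, the RING partner of the cullin Cul5, had 91.8, 338 and 166, 3.68-fold higher at 12 h. Rnf4, which recognizes proteins carrying Sumo chains, had 370.2, 669.7 and 447, with all ratios under 2-fold. Other RING finger genes at least 2-fold higher at 12 h were Rnf103, Rnf138, Rnf141, Rnf145, Rnf181, Rnf19a and Rnf6, with log2 ratios between 1.10 and 1.53. Of these, Rnf6 was below the floor at 0 h and 24 h and had 30.7 at 12 h. Rnf19a was also higher at 24 h than at 0 h (log2 ratio 1.14), and the other 6 were not 2-fold different or had no ratio there.

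The histone ligases among the RING genes depended on the probe set. Rnf2 is the catalytic Ring1B subunit of Polycomb complex 1, which ubiquitinates histone H2A. By 1 probe set Rnf2 had 60.9, 241 and 91, 3.96-fold higher at 12 h, and by another 61.7, 23.9 and 32, 2.58-fold lower at 12 h. Rnf20 ubiquitinates histone H2B together with the Rad6-type enzymes, and had 41.5, 137 and 222 by the brighter set, which has such a suffix. The second set of Rnf20 gave 45.2, 80.7 and 30.6. Both sets were thus higher at 12 h than at 0 h, and they parted at 24 h. Rnf8, a ligase of the DNA double-strand break response, had 92.8, 46.5 and 43.1, 2.15-fold lower at 24 h than at 0 h.

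Several RING genes that were lower at 12 h had higher signals again at 24 h. Rnf10 had 917, 91 and 259, 10.1-fold lower at 12 h and 3.55-fold lower at 24 h than at 0 h. Rnf26, an endoplasmic reticulum ligase that holds endosomes near the nucleus, had 187, 25.4 and 174, so its 24 h level was near that at 0 h (log2 ratio -0.10). Rnf5, another ligase of the endoplasmic reticulum, had 106, 17.7 and 54.4, 6.01-fold lower at 12 h and 3.08-fold higher at 24 h than at 12 h. Rnf14 and Rnf220 were also lower at 12 h, with log2 ratios of -1.76 and -1.66. Rnf227 had 61.8, 60 and 24.3, with its lower level at 24 h alone, and Rnf208 was 2.41-fold higher at 24 h than at 12 h. By the probe set used, all of these but Rnf227 had their lowest signal at 12 h. Among genes above the floor on every array, 29.1% of the ubiquitin genes and 41.9% of all genes did.

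Cullins were higher or near their first level. Cul4a, the scaffold that binds substrates through Ddb1, had 128, 897 and 895, 7.01-fold higher at 12 h and 6.99-fold higher at 24 h than at 0 h. Cul3, the scaffold of ligases with BTB-domain adaptors, had 187, 541 and 418, 2.90-fold higher and 2.24-fold higher at those times. Cul1, the scaffold of the F-box ligases, had 202, 194 and 163, a spread of 1.24-fold. Cul2, which serves the von Hippel-Lindau adaptor, had a log2 ratio of 0.83 at 12 h and 0.18 at 24 h against 0 h. Cul7 was above the floor at 24 h alone, at 17.4. Each of these genes has 1 probe set. Against 0 h, Cul3 and Cul4a were higher under each scaling tried, but on the deposited scale Cul3 was below 2-fold, with log2 ratios of 0.85 at 12 h and 0.16 at 24 h.

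Of 13 F-box genes with a ratio, 3 were higher and 2 lower by 2-fold or more at 12 h, against 17.7% and 27.3% of all genes. Fbxw11, the second beta-TrCP, marks beta-catenin and inhibitors of NF-kappaB for degradation. Its brighter probe set had 131, 456 and 902, 3.48-fold higher at 12 h and 6.88-fold higher at 24 h than at 0 h. The other probe set of Fbxw11 had 85, 21.1 and 14.5, 4.04-fold lower and 5.86-fold lower in the same comparisons, so the direction for this gene depends on the probe set. Fbxo3 had 76, 421 and 153 by one set and 94.1, 198 and 173 by another, the highest signal falling at 12 h in each. Fbxo8 was above the floor at 12 h alone (44.6), at least 3.30-fold higher than at 0 h.

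Fbxo9 had 53.3, 99.9 and 25.9, 3.86-fold lower at 24 h than at 12 h. Fbxw4 had 41.7, below the floor and 56.8, at least 3.08-fold lower after the first step and at least 4.20-fold higher after the second, while its other probe set gave 30, 27.9 and 46.4. Fbxo21 was 4.22-fold lower at 12 h than at 0 h and 2.55-fold higher at 24 h than at 12 h. Fbxw5 had 181, 93.6 and 84.7, 2.13-fold lower at 24 h than at 0 h. Fbxw7, the adaptor for cyclin E and Myc, was below the floor at 0 h and reached 18.3 at 12 h and 17.4 at 24 h. Fbxl5, the iron-sensing adaptor, was above it at 12 h alone (15.9). Ube3a, the ligase first found with a viral oncoprotein, had 33.7, 52.5 and 20.7, 2.53-fold lower at 24 h than at 12 h.

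Among the ubiquitin-specific proteases more genes were lower than higher in both comparisons with 0 h, as among all genes (27.3% lower and 17.7% higher at 12 h, 17.7% and 14.5% at 24 h). On the deposited scale this also held for the conjugating enzymes, the RING finger genes and the F-box genes. At 12 h 7 of 21 with a ratio were lower and 3 higher by 2-fold or more, around a median log2 ratio of -0.07, which turned to 0.39 with equal medians and 0.13 by quantile normalization. At 24 h over 0 h 5 were lower and 1 higher, with a median of -0.69, which is 0.61 below that of all genes. The median minus that of all genes lay between -0.71 and -0.55 under the 4 other scalings. Usp22, which removes ubiquitin from histones within the SAGA coactivator, had 134, below the floor and 14.1, at least 9.91-fold lower at 12 h and 9.51-fold lower at 24 h than at 0 h. Usp10, a partner of the stress granule protein G3bp1, had 143, 19.2 and 35.4, 7.45-fold lower and 4.04-fold lower. Usp19, which has a form anchored in the endoplasmic reticulum, had 143, 22.3 and 57.1, 6.42-fold lower and 2.50-fold lower. These 3 genes stayed at least 2-fold below 0 h on both later arrays, and of them Usp19 was 2.56-fold higher at 24 h than at 12 h.

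Usp21 had 73.1, below the floor and 42.7, at least 5.40-fold lower at 12 h than at 0 h. Usp5, which takes apart free ubiquitin chains, had 145, 50.3 and 86.8, 2.88-fold lower at 12 h. Usp25 and Usp48 were also lower at 12 h, with log2 ratios of -1.45 and -1.12. Higher at 12 h were Usp14, Usp24 and Usp33. Usp14, which trims chains on proteins bound to the proteasome, had 77.1, 287 and 80, 3.72-fold higher after the first step and 3.58-fold lower after the second. The log2 ratios of Usp24 and Usp33 at 12 h were 1.45 and 1.76. Uchl5, another protease that binds the proteasome, had 25.1, 90.9 and 50.3, 3.62-fold higher at 12 h. Both of these proteasome-bound proteases were thus highest at 12 h. Among genes above the floor on every array, 46.8% of the ubiquitin genes and 31.5% of all genes were highest at that time.

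Usp4 and Usp15 act on receptors and Smads of the transforming growth factor beta pathway. Usp4 had 184, 95.4 and 128, and its log2 ratios were -0.94 at 12 h and -0.52 at 24 h against 0 h. Usp15 had 55.4, 52.9 and 31.5 by the brighter set and 24.1, 18.8 and 51.5 by the other, which gives opposite directions at 24 h. Usp9x, another protease with a known part in that pathway, had 194, 117 and 94.4, 2.06-fold lower at 24 h than at 0 h. Usp7, which protects Mdm2 and p53, had log2 ratios of -0.05 and -0.72 against 0 h. Usp3, a histone H2A protease, had 251, 337 and 594 by its brightest set, which may cross-hybridize by its suffix. Another set of Usp3 gave 162, 71.9 and 53.1, 3.05-fold lower at 24 h than at 0 h, the opposite of the first.

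Uchl1, a hydrolase best known from neurons, had 155 at 0 h and was below the floor on both later arrays, at least 11.4-fold lower on each. It has 1 probe set here. Of 6 neural and glial markers 1 was at least 2-fold lower at 12 h and none at least 2-fold higher. That gene, Tubb3, had 459, 74.8 and 203, and Gap43 had 138, 251 and 174. The neural markers therefore differed among themselves, and their part in the signal of Uchl1 was not tested.

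The members with the smallest spread over the 3 arrays were Ube2k (1.19-fold from lowest to highest), Usp34 (1.22-fold), Usp39 (1.22-fold), Cul1 (1.24-fold) and Rnf19b (1.40-fold). This holds for the scaling used: on the deposited scale 4 of them were over 2-fold lower at 24 h than at 0 h, with log2 ratios of -1.16 for Ube2k, -1.26 for Usp34, -1.32 for Cul1 and -1.49 for Rnf19b. Ube2k, which extends lysine-48-linked chains, had 61.9, 66.2 and 55.4, and its second probe set gave 50.9, 26.8 and 38.4. Usp34 had 249, 205 and 208, and its second set 50.9, 18.2 and below the floor, lower at both later times. Usp39, an inactive relative that works in splicing, had 42.4, 51.7 and 46.5, and Rnf19b had 35.8, 29.5 and 25.6. Within 1.5-fold stayed 7 of the 79 genes, and the share of all genes at that limit was not computed. Within 2-fold stayed 26 (32.9%), against 38.5% of all genes above the floor on every array.

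Several of the largest ratios above rest on 1 of several discordant probe sets. Of the 102 genes, 32 have several probe sets, and at 12 h over 0 h 16 had at least 2 measured on both arrays. In 10 of the 16 (62.5%) the sets had the same direction, against 56.2% of 672 genes over the array. In 3 genes, Fbxw11, Rnf13 and Rnf2, sets were at least 2-fold different in opposite directions (18.8%, against 9.52% over the array). For 24 h over 0 h this held for Fbxw11 and Usp3, and for 24 h over 12 h for no member, although the direction was the same in only 4 of 13 genes (30.8%, against 59.2% over the array). The widest gap was that of Rnf13, with log2 ratios of -1.47 and 3.93. Sets with a suffix for possible cross-hybridization also stand for Ube2c, Ube2w, Fbxl5, Fbxw5, Rnf227, Usp25 and Usp34. The position of each set in its transcript was not used here. With every gene left out whose sets differ in sign by any amount, 24 genes were higher and 22 lower at 12 h.

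**Figure D4:**
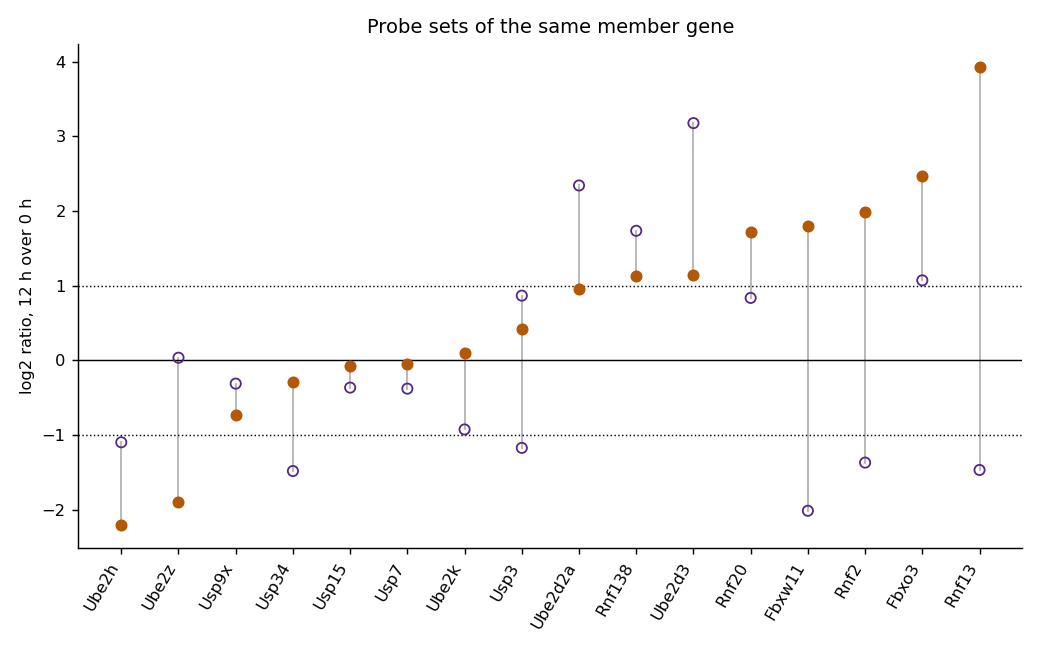
Log2 ratio for 12 h over 0 h (vertical axis) of each measured probe set of the 16 ubiquitin genes with several (horizontal axis). Filled orange points are the sets used for the gene, open points the others, lines join sets of 1 gene, and dotted lines mark 2-fold. Rnf13, Rnf2 and Fbxw11 span both dotted lines, while all sets of Fbxo3, Rnf138 and Ube2h lie beyond the same line.

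Other genes of the pathway, on 7 lists chosen by function, had a share of higher genes at 12 h near that of the array. Of 82 on the array, 76 had a ratio for 12 h over 0 h, of which 13 (17.1%) were higher and 26 (34.2%) lower by 2-fold or more. Their median log2 ratio was -0.43. Over all genes these shares were 17.7% and 27.3%, against which the counts of each list below can be set. The difference between the other pathway genes and the members was not tested. Cullin partners and regulators, among them the COP9 signalosome, had 9 of 15 lower and 2 higher at 12 h, whereas no cullin was 2-fold lower. Ddb1, the adaptor of Cul4a, had 776, 835 and 1585, and the elongins Elob and Eloc, which link adaptors to Cul2, had 1413, 270.2 and 139 (Elob) and 161, 421 and 221 (Eloc). Among precursors and activating enzymes 2 of 8 were higher and 1 lower at 12 h, and Sumo3 had 1308, 1462 and 1355. Uba3, the catalytic subunit of the Nedd8-activating enzyme, had 77.6, 598 and 303, and Nae1, its partner subunit, had 244, 370.0 and 87.6. The Nedd8 route activates cullins, and both subunits were highest at 12 h, as were 31.5% of all genes above the floor on every array. Nedd8 itself had 376, 106 and 62.1, 3.56-fold lower at 12 h and 6.06-fold lower at 24 h than at 0 h.

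Ligases of the HECT kind had 3 of 8 lower and 1 higher at 12 h. Nedd4 had 641, 258 and 479, Wwp2 128, 101 and 168 and Herc1 194, 83.7 and 79.7. Ligases with a RING or U-box outside the Rnf names had 5 of 21 higher and 4 lower. Pja1 had 586, 911 and 528, Trim28, a corepressor, 1213, 102 and 536, and Trim27 227, 248 and 197, so of these Trim28 was 11.9-fold lower at 12 h. The anaphase-promoting complex had 1 of 9 higher and 3 lower at 12 h. It had 3 higher and 0 lower at 24 h over 12 h, against 18.8% and 12.0% of all genes. Its subunit Anapc5 had 712, 101 and 445, its activator Cdc20 257, 158 and 366 and its subunit Cdc16 133, 308 and 247. Cdc20 was 2.32-fold higher at 24 h than at 12 h, over the same step as Ube2c and Ube2s.

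Deubiquitinases and Sumo proteases outside the Usp and Uch names had 3 of 6 lower and 0 higher at 12 h. Senp3 had 256, 42.2 and 81.5, Otud5 136, 95.7 and 131 and Josd2 135, 20.9 and 80.1. The median log2 ratio of these 6 genes was -1.78 at 12 h over 0 h and 0.75 at 24 h over 12 h. Receptors and the segregase had 2 of 9 higher and 3 lower at 12 h. Rad23b, which carries chains to the proteasome, had 190.1, 745 and 421, the segregase Vcp 599, 124 and 483 and the endosomal receptor Hgs 414, 283 and 455. Vcp was 4.84-fold lower at 12 h than at 0 h and 3.90-fold higher at 24 h than at 12 h. Its lowest signal was at 12 h, as for 41.9% of all genes above the floor on every array.

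Members that were higher at 12 h came from longer genes than those that were lower. The genomic span, from the RefSeq gene table, had a median of 42786 bases over the 27 higher genes, 30497 bases over the 23 lower genes and 26876 bases over the 39 others. Over all genes the medians were 26764, 15318 and 20830 bases in the same order. The longer span of higher genes is thus shared with the array as a whole, and the ubiquitin genes are longer than all genes in each of these classes. For 24 h over 12 h the order turned, with a median of 11454 bases for the 16 higher and 35439 bases for the 13 lower genes. It turned over all genes as well, with medians of 15581 and 25136 bases. These are descriptions across genes, and the part of gene length in the ratios was not tested.

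**Figure D5:**
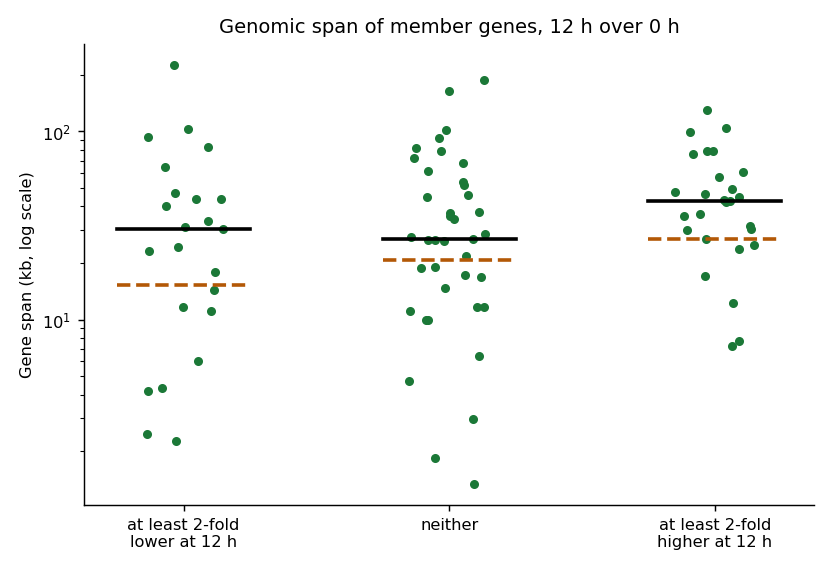
Genomic span (kb, log axis) of the ubiquitin genes that were at least 2-fold lower (23 genes), neither (39 genes) or at least 2-fold higher (27 genes) at 12 h than at 0 h. Points are genes, black bars the medians of these genes and dashed orange bars the medians of all genes in the class. The black bars stand at 42786 bases for the higher and 30497 bases for the lower genes.

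Start regions are shown for the members with the largest measured ratios at 12 h over 0 h that the promoter table holds, 2 higher and 2 lower, so that the sequences at the ends of the range can be set side by side. The windows run from 250 bases before to 50 after the start in RefSeq (GRCm38.p6), and 75 of the 102 genes have one. Capitals mark the GC box string GGCGGG, the CCAAT box CCAAT and the ETS core CCGGAAG, searched on both strands. None of these motifs contains another. The GC box in its form GGGCGG was not searched, so windows counted without GGCGGG can still hold a GC box. The windows are chr3:57735807-57736106 (plus strand) for Rnf13, chr8:13105373-13105672 (plus strand) for Cul4a, chr11:70646985-70647284 (plus strand) for Rnf167 and chr5:115272846-115273145 (minus strand) for Rnf10.
Rnf13: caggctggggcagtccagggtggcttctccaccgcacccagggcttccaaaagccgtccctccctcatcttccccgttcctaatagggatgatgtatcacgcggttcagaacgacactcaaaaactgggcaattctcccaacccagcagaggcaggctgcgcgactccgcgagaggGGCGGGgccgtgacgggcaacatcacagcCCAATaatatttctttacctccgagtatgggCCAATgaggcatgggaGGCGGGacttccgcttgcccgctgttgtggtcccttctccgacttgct
Cul4a: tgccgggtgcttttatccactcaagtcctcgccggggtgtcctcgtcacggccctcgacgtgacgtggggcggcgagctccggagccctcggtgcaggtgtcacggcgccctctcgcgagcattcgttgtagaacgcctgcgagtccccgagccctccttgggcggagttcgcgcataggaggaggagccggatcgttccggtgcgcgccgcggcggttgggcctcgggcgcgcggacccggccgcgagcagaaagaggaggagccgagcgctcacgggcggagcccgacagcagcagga
Rnf167: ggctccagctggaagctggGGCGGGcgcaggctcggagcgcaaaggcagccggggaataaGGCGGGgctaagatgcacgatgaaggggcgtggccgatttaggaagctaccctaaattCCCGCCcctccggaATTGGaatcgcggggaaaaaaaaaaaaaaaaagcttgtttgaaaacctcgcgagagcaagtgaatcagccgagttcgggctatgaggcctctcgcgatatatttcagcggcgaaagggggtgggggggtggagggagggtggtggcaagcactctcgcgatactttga
Rnf10: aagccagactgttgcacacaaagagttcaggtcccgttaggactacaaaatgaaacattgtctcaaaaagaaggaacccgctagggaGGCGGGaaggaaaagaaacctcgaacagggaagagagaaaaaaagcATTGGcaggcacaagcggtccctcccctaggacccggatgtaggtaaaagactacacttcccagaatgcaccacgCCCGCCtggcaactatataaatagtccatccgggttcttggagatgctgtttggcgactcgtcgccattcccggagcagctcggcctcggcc
The window of Rnf13 holds 2 matches to GGCGGG and 2 CCAAT boxes, that of Rnf167 3 and 1, and that of Rnf10 2 and 1. The Cul4a window holds none of the 3 strings searched, but it does hold GGGCGG. The G and C content was 59.7% for Rnf13, 71.0% for Cul4a, 57.7% for Rnf167 and 52.7% for Rnf10.

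Over the 75 members with a window, 64.0% held GGCGGG, 28.0% a CCAAT box and 21.3% an ETS core. The shares were 35.3%, 37.4% and 8.86% of all 32851 windows of the table, and 58.3%, 38.3% and 15.7% of the 6576 genes on the array that have one. Members higher at 12 h held GGCGGG in 12 of 19 windows, the CCAAT box in 6 and the ETS core in 5. Members lower at 12 h held them in 11, 2 and 3 of 16 windows. The median G and C content was 68.0% in the 19 windows of higher genes and 58.3% in the 16 of lower genes, compared with 62.3% and 61.3% over all genes. A match is a description of letters and not a binding site.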

How the data were processed

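The deposited values are 1 linear intensity per probe set and array, never negative and without detection calls. Per the labels' protocols, the authors analysed the arrays with Microarray Suite 5.0 and GeneSpring 6.0; which of them wrote the values, and with what scaling, the labels do not say. Beside 66 controls there are 12422 probe sets, of which 10833 name 1 gene, 396 several and 1193 none.

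Signals other than controls were brought to the same 2% trimmed mean on every array, floored at the pooled 40th percentile and taken to log2. Of several probe sets of a gene the brightest on average was used, so a gene's direction can rest on 1 of several sets. Signals of different probe sets were not compared as levels. Having 1 array per time allows no test, and their number limits the precision; genes were counted at 2-fold or more. The steps were tested on simulated data. Symbols and gene spans came from a RefSeq table (GRCm38.p6), by gene identifier for all 141 probe sets. The members, the 7 pathway lists, the 7 marker lists and the alternatives were chosen with earlier results of these data known. Members described with all 3 values were, in each comparison, the 6 largest measured ratios and 3 brightest bounds each way, the 3 of highest signal in each role, the 5 steadiest, and those with opposite probe sets. Members outside these ranks that are given further values (Rnf7, Rnf8, Fbxw7, Fbxl5, Cul7, Ube2c, Usp4, Usp5, Usp9x, Usp15) were added for their role after the values were seen. The other lists are described by their 3 genes of highest signal, with Isg15 and Nedd8 added after values were seen. Python 3.11.15, numpy 2.4.6 and pandas 2.3.3 were used.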

Additional observations from a re-analysis of the deposited data

How the results depend on the processing

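No paired analysis was possible because each time point has 1 array, and for the same reason no array could be left out. Counts of members at least 2-fold different were within 1.5 times the reported ones except as follows. With values as deposited they were 14 higher and 35 lower for 12 h over 0 h, 24 lower for 24 h over 12 h, and 5 higher and 47 lower for 24 h over 0 h. After median centring 25 were lower for 24 h over 12 h. For that step a floor at the 60th percentile left 7 higher and 8 lower, and no floor beyond a signal of 1 gave 21 lower. A 3-fold rule gave 14 higher for 12 h over 0 h, 9 higher and 5 lower for 24 h over 12 h, and 5 higher and 6 lower for 24 h over 0 h; fewer pass by its construction. Quantile normalization, a floor at the 20th percentile, scaling from the 2 arrays compared, the mean over probe sets, leaving out sets that may cross-hybridize and, both chosen after seeing the data, ratios measured on both arrays and omission of discordant genes moved no count by over 1.5 times.

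Of 78 ratios of named members that were at least 2-fold, 58 stayed so under all 4 other scalings and none changed sign under them. The mean over probe sets turned Fbxw11 at 12 h over 0 h (-0.11) and Usp3 at 24 h over 0 h (-0.11), as log2 ratios. Without sets that may cross-hybridize, Usp3 (-1.61) and Rnf20 (-0.56) turned for 24 h over 0 h, 66 of the 78 ratios stayed at least 2-fold, 1 was below it and the others, among them those of Rnf11 and Ube2e1, could not be given. The cause was not tested. The median log2 ratio of members minus that of all genes was above 0 for 12 h over 0 h and below 0 for 24 h over 12 h under all 11 alternatives that give one, while for 24 h over 0 h it ran from -0.15 to 0.01. The floor hides differences among dim genes.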
